A study of Arabidopsis thaliana with 12 samples.

Results

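The genes described here are the photosynthesis genes of the Arabidopsis thaliana plastid genome. They were taken as every probe set annotated to a single gene with a plastid locus tag and a symbol starting with psa, psb, pet, ndh, atp or rbc. This gave 43 genes of the 22746 probe sets on the array: 5 of photosystem I, 15 of photosystem II, 6 of the cytochrome b6f complex, 10 of the NDH complex, 6 of the ATP synthase, and rbcL. All 43 passed the filter on dim probe sets, which used the mean log2 signal over all 12 arrays, as did 15922 probe sets in all. The probe set for ndhB lists 2 gene copies and was left out. The other 26 plastid genes with a probe set of their own, which mostly encode ribosomal proteins and RNA polymerase subunits, served for comparison.

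The study measured total RNA of ecotype Col-0 seedlings on 12 arrays, 3 in each of 4 groups. Plants grew from seed on MS agar at 21 °C in 24 h light. In the first group the medium held 50 µM L-AOPP together with 10 nM indole-3-acetic acid (IAA, the main natural auxin), in the second 50 µM L-AOPP alone, and in the other two 0.1% DMSO as mock treatment. L-AOPP (2-aminooxy-3-phenylpropionic acid) is an inhibitor of phenylalanine ammonia-lyase that the series text studies as an inhibitor of auxin synthesis. In the first 3 groups the part with the shoot apical meristem (SAM) was dissected and frozen, and in the fourth whole mock plants were frozen undissected. No genotype other than Col-0 was used. The DMSO content of the L-AOPP plates is not given, and the plant age reads 4 days in the sample labels and 7 days in the series text. Nothing in the labels says whether the 3 replicates of a group were separate cultures, and the p-values below then reflect array-to-array spread that may be technical.

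Chloroplasts keep a small genome of their own that encodes the reaction-centre proteins of both photosystems, part of each further complex of the thylakoid membrane, and the large subunit of Rubisco. The remaining subunits of these complexes are encoded in the nucleus and imported, so each complex is assembled from products of both genomes. Plastid genes are transcribed mostly as clusters whose long RNAs are cut into shorter ones, and in shoot meristem cells the plastids are small undifferentiated proplastids that become chloroplasts as leaf cells mature. Most plastid mRNAs do not carry the long poly(A) tail of nuclear mRNAs, and how the RNA was primed for labelling is not given in the sources used here.

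Values are linear array signals as deposited, already scaled by the authors, and differences are log2 differences between group means with the standard error (SE) of limma's fit, n = 3 arrays in each group. A gene was called where limma's p-value, adjusted by Benjamini-Hochberg over all 15922 probe sets, lay below 0.05. The dissected tissue carried its label's markers. All 4 measured genes of the meristem and boundary list (CLV3, UFO, PHV and LAS, of 9 listed) were higher in mock SAM than in whole plants, and their summed signal was 1534 to 2021 against 341 to 409. All 4 measured green leaf genes (RCA, PRK, SBPASE and LHCB4.1, of 7 listed) were lower, with a summed signal of 35082 to 37350 in mock SAM and 84627 to 96495 in whole plants. Of the 5 root genes listed, EXPA18 and EXPA7 have a named probe set, with a summed signal of 44.3 to 57.4 in mock SAM and 574 to 786 in whole plants. EXPA18, the one bright enough to be tested, was lower in mock SAM. In these bulk samples, fewer green cells and less plastid RNA per cell cannot be told apart.

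Arrays of 1 group had Spearman correlations of 0.974 to 0.982 over all probe sets, and no pair held identical values, but 2 arrays stood apart for the plastid genes. On mock SAM replicate 3 the control for 25S ribosomal RNA gave a signal of 164, against 5170 to 10331 on the other 11 arrays. The same array was the lowest of the 9 SAM arrays for 25 of the 43 photosynthesis genes, where it was lowest for 20.8% of all probe sets, and the highest for 6 (atpA, atpE, ndhC, ndhI, psbJ and psbM), where it was highest for 17.9%. On L-AOPP replicate 3, 42 of the 43 genes lay above the mean of the other L-AOPP arrays, by a median of 0.87 on the log2 scale, and its 25S signal was 9195. It was the highest SAM array for 15 of the 43 genes (9.88% of all probe sets), and L-AOPP with IAA replicate 1 for 17 (7.97%). The GAPDH control ratio (3' over 5' probe set), a sign of RNA integrity, averaged 1.29 on the log2 scale with L-AOPP and IAA, 1.5 with L-AOPP, 1.78 in mock SAM and 0.97 in whole plants. On mock SAM replicates 1, 2 and 3 the ratio was 1.8452, 1.3903 and 2.1021, so replicate 3 had the highest ratio of all arrays. L-AOPP replicate 3, whose plastid signals were high rather than low, also had the highest ratio of its group (1.6329). Fits with the GAPDH ratio as a covariate and with single arrays left out are given below. What caused these differences between arrays was not tested.

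**Figure D1:**
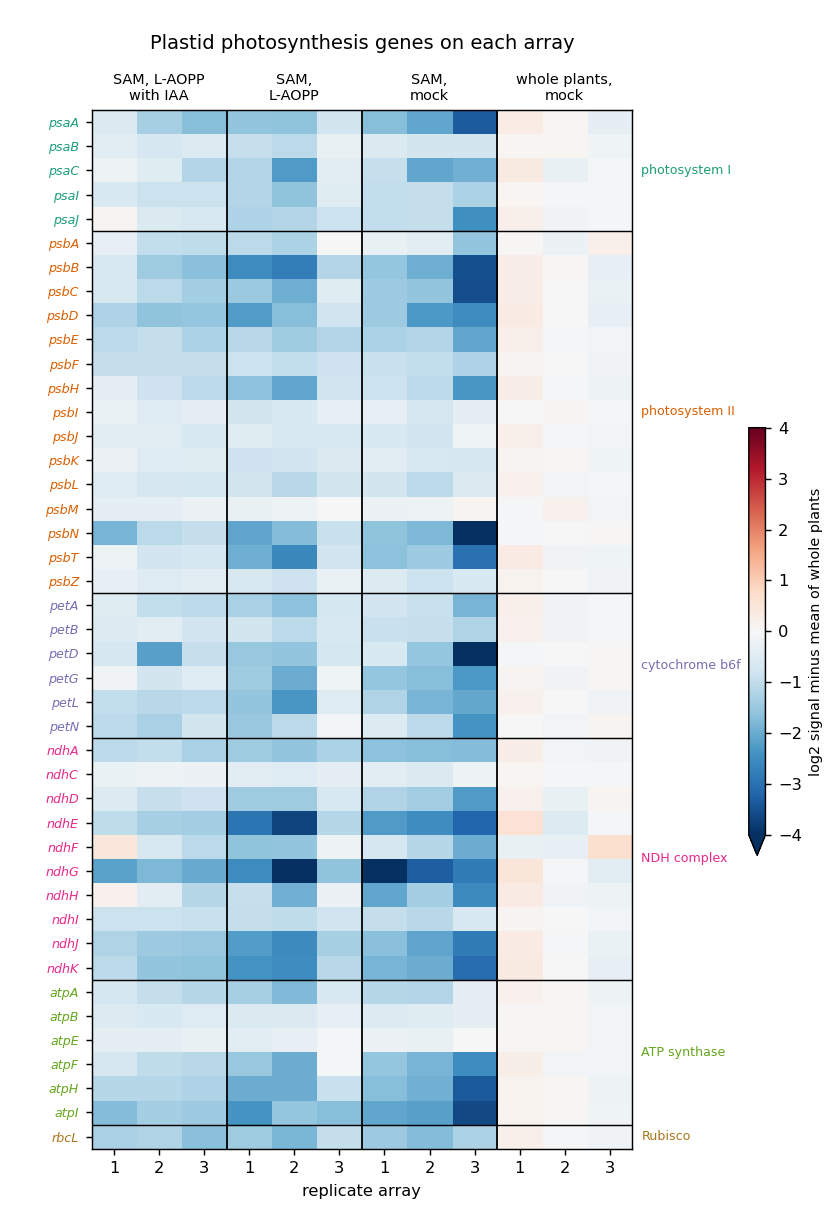
Log2 signal of each of the 43 photosynthesis genes (rows, by complex) on each of the 12 arrays (columns, by group and replicate), minus the gene's mean over the 3 whole plant arrays. The colour scale stops at -4, below which values share the darkest blue. Nearly all SAM columns are blue, mock SAM replicate 3 is the darkest for 25 genes, L-AOPP replicate 3 is paler than its group, and the rows of psbM and atpE are pale on all arrays.

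Mock SAM was first set against mock whole plants, to compare the scaled signal of plastid photosynthesis genes in the dissected shoot tip and the whole plant. Scaled signals are relative to the rest of each array and are not amounts of RNA. Of the 43 genes, 41 were lower in the SAM and none was higher. Over all probe sets 25% were lower and 42.6% higher, 67.6% in either direction, so calls were common in this comparison. The median log2 difference was -1.48 (2.795-fold lower in the SAM), beside 0.205 over all probe sets. The values ran from -3.80 for ndhG, a subunit of the NDH membrane arm, to -0.11 for psbM, a small photosystem II subunit. ndhG and petD passed the filter on dim probe sets only through the whole plant arrays. Over the 9 SAM arrays their mean log2 signals lay below its threshold of 5.16, which limits their calls. In addition, 35 of the 43 genes had all 9 SAM arrays, treated or mock, below all 3 whole plant arrays, which held for 21.4% of all probe sets. The exceptions were psaC, psaJ, psbA, psbM, ndhF, ndhH, atpE and atpF, in each of which at least 1 SAM array reached the whole plant range. For all 43 the single highest array was a whole plant array. The share of all probe sets with this order was not computed, so the count cannot be read as particular to these genes. With the GAPDH control ratio in the fit all 43 differences stayed negative, with a median of -0.99, and 21 genes were called, among them psbM and atpE, which were not called without it.

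**Figure D2:**
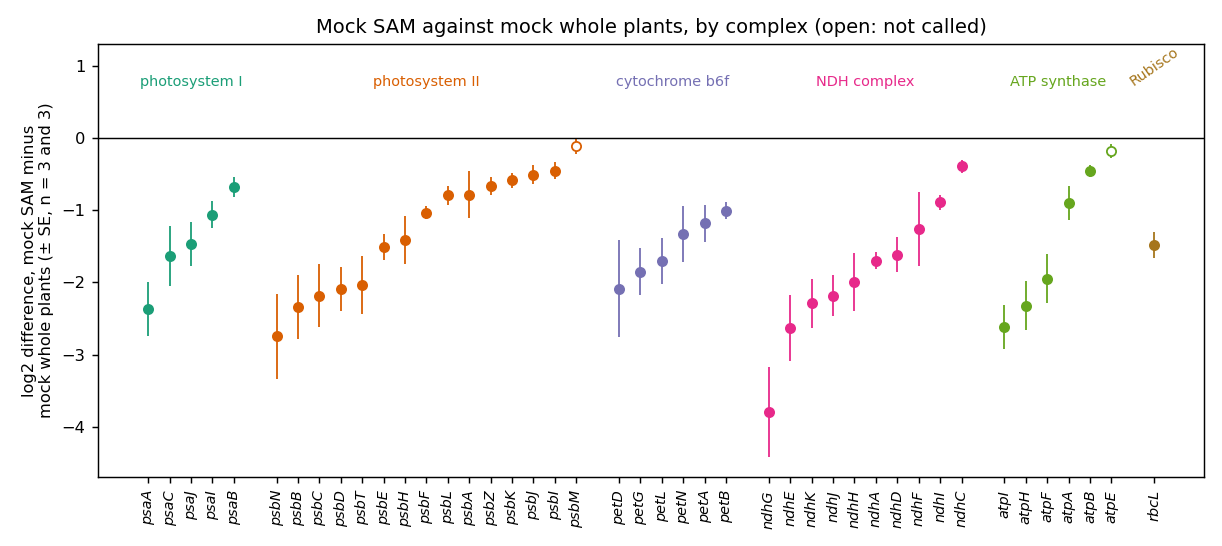
Log2 difference of each gene between mock SAM and mock whole plants (points, with bars of ± 1 SE, 3 arrays in each group), ordered within each complex. Filled points were called. All 43 points lie below 0, and the open ones are psbM and atpE.

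Photosystem I passes electrons from plastocyanin to ferredoxin. All 5 of its genes were lower in the SAM, with a median difference of -1.47. The genes for the paired reaction-centre proteins, which together bind the primary donor P700, marked the ends of this range. For psaA (ArthCp022) the signal was 131, 101 and 42.6 on the mock SAM arrays and 524, 451 and 325 on the whole plant arrays. The groups were far apart, with mock SAM replicate 3 the lowest, and the difference was -2.37 ± 0.37 (SE; adjusted p 3.91e-05, limma). For psaB (ArthCp021) the signal was 17177, 15201 and 15432 in mock SAM and 26845, 27129.6 and 22779 in whole plants. Here too the groups did not overlap, but the difference was only -0.68 ± 0.14 (adjusted p 0.0006). Between them lay psaC, whose protein carries the terminal iron-sulfur clusters (-1.63 ± 0.41), and the genes of the small subunits psaJ (-1.47 ± 0.30) and psaI (-1.06 ± 0.19).

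Photosystem II splits water and is the site of light damage to the D1 protein. Of its 15 genes 14 were lower in the SAM, with a median of -1.03. psbM (ArthCp016) had a signal of 28831, 29423 and 36952 in mock SAM and of 32404, 38403.5 and 31784 in whole plants. These arrays overlapped, with mock SAM replicate 3 above 2 of the 3 whole plant arrays, and the difference of -0.11 ± 0.11 did not pass (adjusted p 0.37). psbN (ArthCp051), which in tobacco is known as an assembly factor rather than a subunit and is counted here by its name, had 622, 540.4 and 66.2 in mock SAM and 1828, 1895 and 1938 in whole plants. Its difference of -2.75 ± 0.59 (adjusted p 0.000674) was the largest of the photosystem II genes, and mock SAM replicate 3 lay far below the others.

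Among the large photosystem II proteins, the genes of the inner antenna proteins CP47 (psbB, -2.34 ± 0.45) and CP43 (psbC, -2.19 ± 0.44) and of the reaction-centre protein D2 (psbD, -2.09 ± 0.31) had differences near one another. The gene of D1, psbA, differed by -0.79 ± 0.33 (adjusted p 0.0441). Its signal was 1269, 1134 and 520.0 in mock SAM and 1616, 1321 and 1797 in whole plants, so mock SAM replicate 3 lay well below the other arrays, and without that array the difference was -0.38 (adjusted p 0.268). The cytochrome b559 genes psbE and psbF had -1.51 ± 0.18 and -1.03 ± 0.09. The small subunit genes psbT (-2.04) and psbH (-1.41) stood apart from psbL (-0.80), psbZ (-0.67), psbK (-0.59), psbJ (-0.51) and psbI (-0.45).

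The cytochrome b6f complex links the photosystems and pumps protons. All 6 of its genes were lower in the SAM, with a median of -1.52. The genes of the large subunits were petA for cytochrome f (-1.18 ± 0.26), petB for cytochrome b6 (-1.01 ± 0.12) and petD for subunit IV (-2.09 ± 0.67). The value for petD rests on low signals, 1 array of which lay below 19.4, the 20th percentile of all signals, and without mock SAM replicate 3 it was -1.08 (adjusted p 0.0542). Those of the small subunits were petG (-1.85 ± 0.33), petL (-1.71 ± 0.31) and petN (-1.33 ± 0.39).

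The NDH complex returns electrons from ferredoxin to the plastoquinone pool in cyclic electron flow. All 10 of its genes were lower in the SAM, and its median of -1.85 was the lowest of the complexes with several genes, though its values spread over most of the range of all 43. ndhG had 6.50, 25.6 and 36.1 in mock SAM and 353, 248 and 186 in whole plants. The groups were far apart, but 1 mock array lay below 19.4, and with signals raised to that floor the difference of -3.80 ± 0.62 became -3.28. ndhE (-2.64), ndhK (-2.29), ndhJ (-2.19), ndhH (-1.99), ndhA (-1.70), ndhD (-1.62) and ndhF (-1.26) followed. At the other end ndhI (-0.89 ± 0.10) and ndhC (-0.40 ± 0.09) differed little, yet with a small spread (adjusted p 1.25e-06 and 0.000897). Of the NDH calls ndhF had the highest adjusted p, 0.0387, with whole plant signals of only 56.4, 55.7 and 108.

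The ATP synthase makes ATP from the proton gradient, and 5 of its 6 plastid genes were lower in the SAM, with a median of -1.42. In its membrane part, CFo, the ring of c subunits turns as protons pass, and its catalytic head, CF1, makes the ATP. atpI (ArthCp010), for subunit a of CFo, had 215, 199.6 and 75.2 in mock SAM and 1008, 931 and 798 in whole plants, a difference of -2.62 ± 0.31 (adjusted p 1.7e-06) with all mock arrays far below the whole plant arrays. The other CFo genes, atpH for the c-ring subunit (-2.32 ± 0.34) and atpF for subunit b (-1.95 ± 0.34), had differences of like size. Those of CF1 were smaller: atpA for the alpha subunit had -0.90 ± 0.24 and atpB for the beta subunit -0.46 ± 0.08. atpE (ArthCp028), for the epsilon subunit, had 29520.4, 28076 and 34229 in mock SAM and 35937, 35882 and 32566 in whole plants. Mock SAM replicate 3 lay above one whole plant array, and the difference of -0.19 ± 0.10 did not pass (adjusted p 0.0967). It was called with each array centred on its median (-0.32, adjusted p 0.0123) and without mock SAM replicate 3 (-0.27, adjusted p 0.0195). The CFo probe sets were also the dimmer ones, with mean signals on the L-AOPP arrays of 247.6 (atpI), 799.3 (atpF) and 1768 (atpH). Those of CF1 had 5515 (atpA), 25430 (atpB) and 28740 (atpE). The split between CFo and CF1 thus cannot be told apart from brightness.

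rbcL (ArthCp030) encodes the large subunit of Rubisco, the enzyme that fixes carbon dioxide. Its signal was 2415, 1954.5 and 2733 in mock SAM and 7469, 6321 and 5968 in whole plants. The groups were well apart and mock SAM replicate 3 was here the highest mock array, in contrast to most of the other genes. The difference was -1.48 ± 0.18 (adjusted p 2.68e-06), the middle value of the 43.

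The other plastid genes were lower in the SAM too. All 25 of the 26 that could be tested were called, with a median of -0.86. On each array the mean log2 signal of the 43 photosynthesis genes was set against that of the 26 other plastid genes. The photosynthesis genes were lower by 0.92 ± 0.10 (SD, n = 3) in mock SAM and by 0.60 ± 0.04 in whole plants. The arrays of the 2 tissues did not overlap in this measure. The 2 sets also differ in brightness, which goes with the size of the difference between mock SAM and whole plants: 15 of the 43 photosynthesis genes had a mean signal under 500 on the L-AOPP arrays, against 3 of the 25 other plastid genes. Within bands of that signal the median differences lay closer together, at -2.09 for the photosynthesis genes and -1.86 for the other plastid genes under 500, -1.51 and -1.50 from 500 to 5000, and -0.67 and -0.57 over 5000. The bands come from SAM arrays, so they are not independent of the tissue difference. In SAM with L-AOPP and IAA the gap was 0.99 ± 0.01, and with L-AOPP 1.1 ± 0.09.

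The nuclear partners could be followed in part. Of 157 nuclear genes listed for the same complexes, for Rubisco and the Calvin cycle, and for plastid gene expression and assembly, 21 had a probe set named here, and all 21 were tested. In mock SAM 18 of them were lower than in whole plants and 2 were higher, with a median of -1.15. Those lower included PSAN of photosystem I (-1.30), the antenna gene LHCB4.1 (-0.96) and ATPC1, for the gamma subunit of the ATP synthase (-1.21), and those higher were ATPC2 (0.53), for a second gamma subunit, and CRR22 (0.58). The array pattern of the plastid genes was not seen in them. On mock SAM replicate 3 the median deviation from the other mock SAM arrays was -0.68 for the 43 plastid genes and 0.06 for the 21 nuclear genes, and on L-AOPP replicate 3 it was 0.87 and 0.01.

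**Figure D3:**
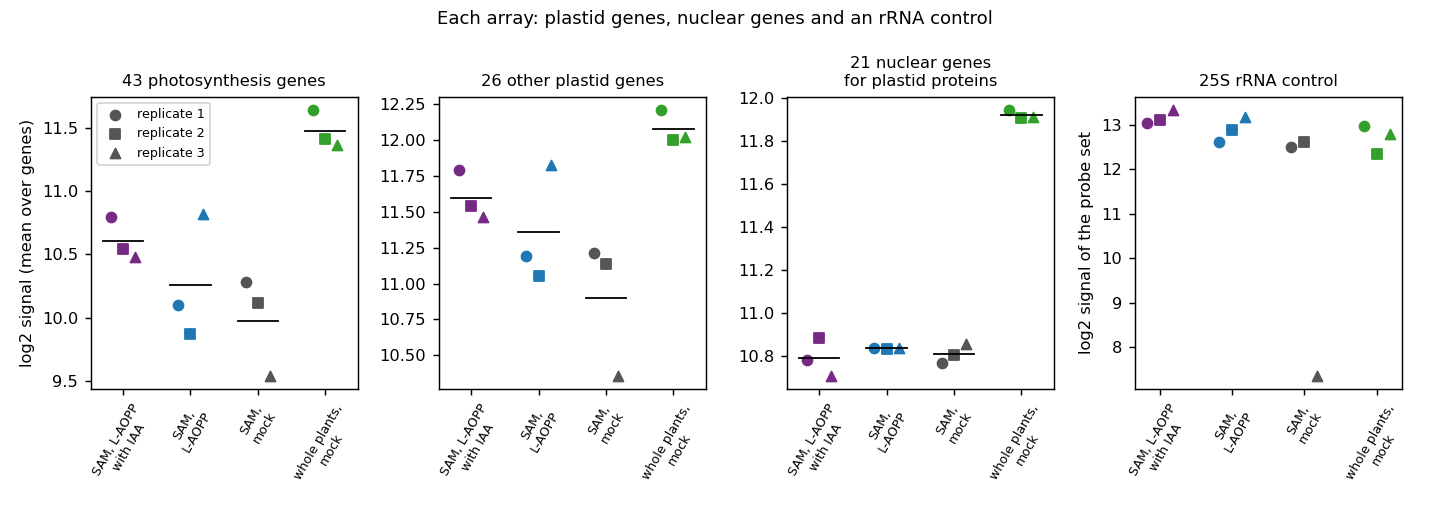
Mean log2 signal on each array of the 43 photosynthesis genes, of 26 other plastid genes and of 21 nuclear genes for plastid proteins, and the log2 signal of the 25S rRNA control (points by group, marker shapes by replicate, bars at the group mean in the first 3 panels; each panel has its own axis). Mock SAM replicate 3 is the lowest array in both plastid panels and in the 25S panel, while the nuclear genes of the 9 SAM arrays lie close together.

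The size of the tissue difference went with the brightness of the probe set. Brightness was taken from the 3 L-AOPP SAM arrays, whose values do not enter the tissue difference. They are SAM arrays all the same, so a gene low in the SAM is also dimmer on them. Part of the relation may therefore be built in. Across the 43 genes it had a Spearman correlation of 0.758 and a Pearson correlation of 0.749 with the difference between mock SAM and whole plants, given as a description since the genes share arrays, scaling and transcripts. Over the 15854 tested probe sets outside the plastid genome the same correlations were 0.168 and 0.217. The 15 genes with a mean signal under 500 had a median difference of -2.09 (from -3.80 to -1.26), the 15 genes from 500 to 5000 one of -1.51, and the 13 genes over 5000 one of -0.67 (from -1.18 to -0.11). psbM and atpE, the genes with the smallest differences, were among the brightest features of the whole array, with ranks of 3 and 4 of 22746 by mean signal. Of the genes with the next smallest differences atpB ranked 6, psbI 254, ndhC 318 and psbJ 682. psbM reached 38403.5 where the highest signal in the table was 47774.7. The table holds no saturation flags, so whether such signals had reached the scanner's limit was not tested.

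**Figure D4:**
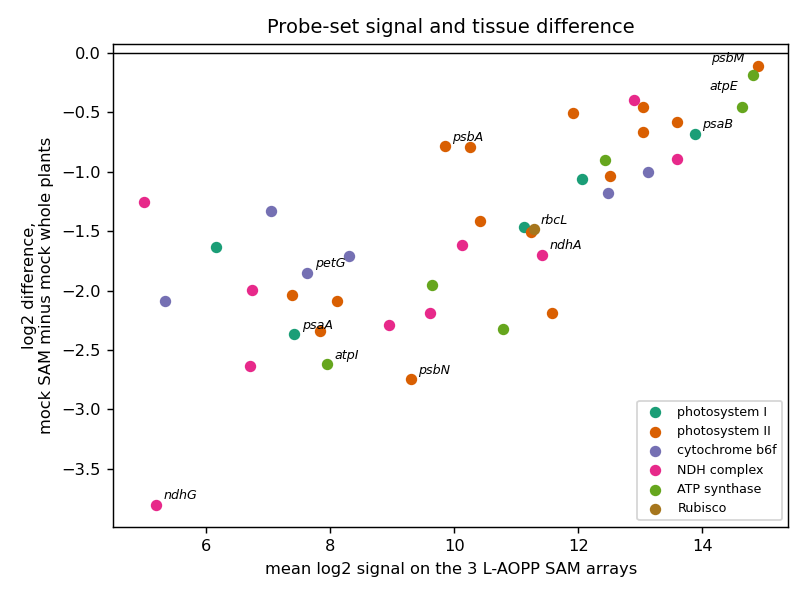
Log2 difference between mock SAM and mock whole plants (vertical) against mean log2 signal on the 3 L-AOPP SAM arrays (horizontal), 1 point for each of the 43 genes, coloured by complex. Most dim genes lie low and the brightest lie near 0, with ndhG at the lower left and psbM and atpE at the upper right.

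Probe sets of neighbouring genes that are transcribed together did not share 1 difference. Of the 43 genes, 34 fall into 10 transcription clusters known from textbook maps of the plastid genome. In the cluster of ndhH, which holds 6 ndh genes and psaC, the differences between mock SAM and whole plants ran from -3.80 for ndhG to -0.89 for its neighbour ndhI, a spread of 2.91. The clusters of ndhC, atpI, psaA, psbD and psbB had spreads of 1.89, 1.72, 1.69, 1.52 and 1.33, and that of psbE one of 1.00. The clusters of atpB (0.27), petL (0.14) and psbK (0.13) had nearly uniform values. Brightness differed within the wide clusters, with mean L-AOPP signals of 36.65 for ndhG and 12330 for ndhI, and 171.7 for psaA and 15050 for psaB. In the uniform clusters it was closer, as in petL (315.7) and petG (198.4), but so it was for psbE (2403) and psbJ (3860). The part of brightness in these spreads was not tested.

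Ratios within 1 array give these contrasts free of the array's overall level, though not of the difference in brightness between the probe sets. The pairs were chosen after the tissue differences were seen. For those printed here the difference in ratio repeats the spread of the cluster given above. The separation and the p-values below therefore describe the chosen pairs and are no independent test. The log2 ratio of psaA to psaB probe-set signal was -7.04, -7.24 and -8.50 in mock SAM, against -5.68, -5.91 and -6.13 in whole plants. The groups did not overlap, and the difference of -1.69 had an exact permutation p of 0.1 (two-sided), the smallest that 3 against 3 arrays allow. Of the treated SAM arrays, L-AOPP with IAA replicate 1 (-6.01) lay within the whole plant range and the others below it. For ndhG over ndhI the ratio was -10.87, -8.74 and -8.70 in mock SAM, against -6.16, -6.55 and -6.86 in whole plants, again with no overlap (difference -2.91, exact permutation p 0.1). The first of these values rests on the ndhG signal of 6.50, and with signals raised to 19.4, an alternative chosen after seeing the data, it was -9.29 and the difference -2.38, still with no overlap. Without that floor all 9 SAM arrays, treated or mock, lay below all whole plant arrays in this ratio. For atpI over atpA the ratio was -4.77, -4.86 and -7.04, against -3.85, -3.84 and -3.82, with mock SAM replicate 3 far from the other two (difference -1.72, exact permutation p 0.1). Here L-AOPP replicate 2 (-3.64) lay above all whole plant arrays, and the other treated SAM arrays lay below them. For psbK over psbI it was 0.61, 0.76 and 0.39, against 0.83, 0.70 and 0.63, and these overlapped (difference -0.13, exact permutation p 0.4). In each ratio the absolute level compares different probes and has no meaning of its own, and 9 such ratios were computed, of which 8 had the smallest exact permutation p of 0.1 and so could not pass an adjustment.

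**Figure D5:**
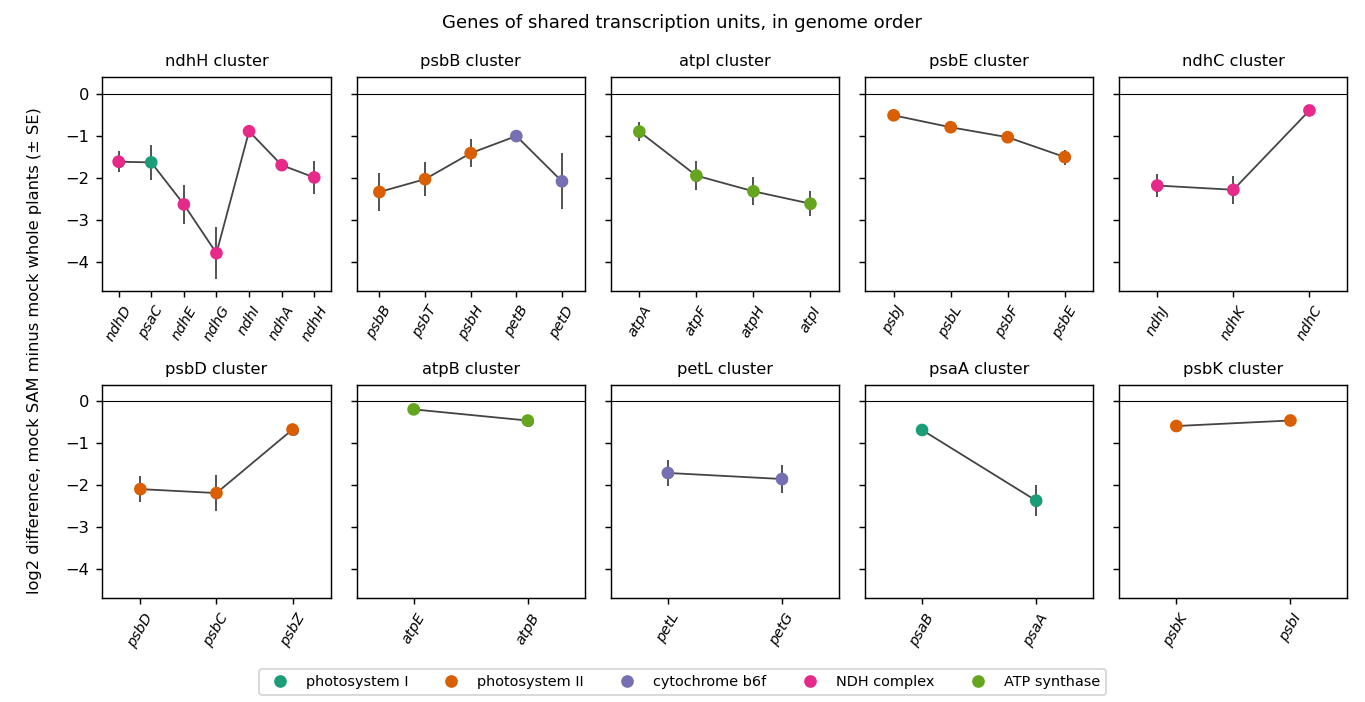
Log2 difference between mock SAM and mock whole plants (points, with bars of ± 1 SE, 3 arrays in each group) for the 34 genes of 10 transcription clusters, 1 panel for each cluster with its genes in genome order. The lines only join neighbours. The ndhH, ndhC and atpI panels are steep, and the petL and psbK panels are flat.

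Within the SAM, the inhibitor alone was set against mock treatment. None of the 43 photosynthesis genes was called, where 2.56% of all probe sets were, and 6 of the 43 had an unadjusted limma p below 0.05, all of them higher with L-AOPP (psaA, ndhA, ndhH, atpF, atpH and atpI). Over all probe sets 16.8% had such a p in either direction and 8.11% with a higher value, so a count of 6 is near the background. The median difference was 0.19, beside -0.0057 over all probe sets, and 29 genes had a positive and 14 a negative difference. The values lay between -0.33 for atpA and 1.17 for psbN. For psbN the signal was 434, 569.8 and 1014 with L-AOPP and 622, 540.4 and 66.2 in mock SAM, so the groups overlapped and the ends of both were set by replicate 3 (1.17 ± 0.59, adjusted p 0.336). For psaA it was 142, 139 and 257 with L-AOPP and 131, 101 and 42.6 in mock SAM, with no overlap but close neighbours (1.06 ± 0.37, adjusted p 0.153). Only psaA and ndhA had every L-AOPP array above every mock array, 2 of 43, where 10.6% of all probe sets did, and none had the opposite order (12.3%).

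This comparison rests on the 2 arrays that stood apart. Between replicates the 43 genes had a median SD of 0.50 on the log2 scale with L-AOPP and 0.49 in mock SAM, against 0.13 and 0.16 over all probe sets, while with L-AOPP and IAA and in whole plants it was 0.20 and 0.17. Without L-AOPP replicate 3 the median difference was -0.09, with 18 genes positive and 25 negative. Without replicate 3 of both groups it was -0.16, with 11 genes positive and 32 negative. Without mock SAM replicate 3 alone it was 0.05. The direction of the median therefore changed with 1 array, and no gene was called in any of these fits.

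The effect of IAA in plants that had the inhibitor was measured between the arrays with both agents and those with L-AOPP alone. Again none of the 43 genes was called, where 0.860% of all probe sets were, and 9 had an unadjusted limma p below 0.05, all higher with IAA (psaJ, psbH, psbK, psbT, petG, ndhA, ndhC, ndhE and ndhJ). Over all probe sets the share with such a p was 10.7% in either direction and 5.43% with a higher value. The median difference was 0.29, beside 0.0037 over all probe sets, with 37 genes positive and 6 negative. The values ran from -0.17 for psbM to 1.34 for ndhE. By complex the median was 0.57 for the NDH complex, whose 10 genes were all positive, 0.31 for photosystem I, 0.30 for cytochrome b6f, 0.28 for the ATP synthase and 0.17 for photosystem II. For rbcL it was 0.01. In 4 of 43 genes (psaJ, psbK, psbL and ndhC) every array with IAA lay above every array with L-AOPP alone, where 9.36% of all probe sets did, and none had the opposite order (9.06%). Without L-AOPP replicate 3, ndhE (2.05, adjusted p 0.0135) and petG (1.24, adjusted p 0.0422) were called, and the median was 0.50. Without L-AOPP replicate 2 it was 0.10.

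L-AOPP with IAA against mock joins both agents. Here 2 of the 43 genes were called and both were higher, where 1.22% of all probe sets were higher, 1.82% lower and 3.04% different in either direction. They were ndhA, for a membrane subunit of the NDH complex, and petG, for a small subunit of cytochrome b6f. With a pseudocount added to all signals, the 25th percentile of 28.4, 5 genes were called (these and psaJ, psbT and atpI). Without mock SAM replicate 2 it was also 5 (ndhA, ndhH, psaJ, psbT and atpI).

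ndhA (ArthCp079) had a signal of 3537, 3696 and 2987 with L-AOPP and IAA, of 2761, 2434 and 3046 with L-AOPP, of 2353, 2248 and 2184 in mock SAM, and of 8824, 6801 and 6603 in whole plants. All arrays with L-AOPP and IAA were above all mock SAM arrays, and so were all arrays with L-AOPP alone, while every SAM array stayed far below the whole plants. With L-AOPP and IAA it was 1.501-fold higher than in mock SAM (0.59 ± 0.11, adjusted p 0.0138). The differences of 0.28 ± 0.11 for L-AOPP against mock (adjusted p 0.231) and 0.31 ± 0.11 for IAA with L-AOPP against L-AOPP (adjusted p 0.289) did not pass. The call did not hold when mock SAM replicate 3 (0.56, adjusted p 0.0532) or L-AOPP with IAA replicate 2 (0.52, adjusted p 0.0602) was left out, with no intensity trend in the fit (0.59, adjusted p 0.0687), or with the GAPDH control ratio in the fit (0.56, adjusted p 0.387).

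petG (ArthCp041) had 409, 274 and 318.5 with L-AOPP and IAA, 169, 115 and 402 with L-AOPP, 154, 140.2 and 91.8 in mock SAM, and 484, 413 and 464 in whole plants. The arrays with L-AOPP and IAA lay above all mock SAM arrays and below all whole plant arrays, the highest of them close to the lowest whole plant array. Of those with L-AOPP alone, replicate 2 lay within the mock range, replicate 1 just above it and replicate 3 far above it. The gene was 2.62-fold higher with L-AOPP and IAA than in mock SAM (1.39 ± 0.33, adjusted p 0.0357). It did not hold when any single array of the 6 was left out (adjusted p 0.0506 to 0.145), nor with no intensity trend (0.106) or with the GAPDH control ratio in the fit (0.571).

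The remaining 41 genes were not called in this comparison, and 20 of the 43 had an unadjusted limma p below 0.05, all with higher values under L-AOPP and IAA. Over all probe sets the share with such a p was 18% in either direction and 8.79% with a higher value. The median difference was 0.64, beside -0.0012 over all probe sets, with 39 genes positive and 4 (psbM, atpA, atpB and atpE) negative. In 18 of 43 genes every array with L-AOPP and IAA lay above every mock SAM array, where 9.81% of all probe sets did, and none had the opposite order (11%). These were 7 of the 10 NDH genes, 3 each of photosystem II, cytochrome b6f and the ATP synthase, 2 of photosystem I, and not rbcL. The medians were 1.01 for photosystem I, 0.85 for the NDH complex, 0.55 for cytochrome b6f, 0.49 for the ATP synthase, 0.23 for photosystem II and 0.09 for rbcL. Within the ATP synthase the CFo genes had 1.15 (atpH), 1.11 (atpI) and 1.01 (atpF), and the CF1 genes -0.03 (atpA), -0.11 (atpB) and -0.16 (atpE). The CFo probe sets were the dimmer ones, and the part of brightness in this split was not tested.

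Examples of these genes show how wide the spread was. psaA had 287, 168 and 129 with L-AOPP and IAA and 131, 101 and 42.6 in mock SAM, where the lowest treated array lay within the mock range (1.16 ± 0.37, adjusted p 0.108). atpI had 270.5, 358 and 335 with L-AOPP and IAA and 215, 199.6 and 75.2 in mock SAM, with no overlap (1.11 ± 0.31, adjusted p 0.0639). psaB, the bright neighbour of psaA, had 18462, 16125 and 17366 with both agents and 17177, 15201 and 15432 in mock SAM, which overlapped (0.12 ± 0.14, adjusted p 0.722).

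Bright probe sets had small differences here as well. The median difference of L-AOPP with IAA against mock was 1.1 for the 15 genes with a mean L-AOPP signal under 500, 0.66 for the 15 from 500 to 5000 and 0.08 for the 13 over 5000. The deviation of mock SAM replicate 3 from the other mock arrays had medians of -1.07, -0.92 and 0.15 in the same bands, and 14, 12 and 5 genes were below 0. Without that array the median difference over the 43 genes was 0.33 instead of 0.64, 36 genes remained positive, and none was called. The other plastid genes had the same direction in this comparison, with 6 of 25 called, all higher, and a median of 0.73. Of the 21 nuclear genes none was called in any of the 3 SAM comparisons, and their median here was -0.06.

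Among the levels of the 4 groups, the mean log2 signal over the 43 genes was 10.80, 10.54 and 10.48 on the arrays with L-AOPP and IAA, 10.10, 9.87 and 10.82 with L-AOPP, 10.28, 10.11 and 9.54 in mock SAM, and 11.64, 11.42 and 11.37 in whole plants. The whole plant arrays were above every SAM array. The arrays with L-AOPP and IAA were above all mock SAM arrays, and those with L-AOPP alone overlapped both other SAM groups, so only the step between SAM and whole plants was clear of the spread for every group. rbcL showed no order among the SAM groups: its signal was 2695, 2819.8 and 2061 with L-AOPP and IAA, 2467, 1859 and 3368 with L-AOPP, and 2415, 1954.5 and 2733 in mock SAM. Its differences among them had adjusted p-values of 0.838 to 0.995.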

How the data were processed

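RNA from 12 Arabidopsis samples was hybridised to 1-colour Affymetrix arrays. The authors deposited a linear signal intensity for each probe set, made with MAS5 (no version given) per the submitters' processing notes. The table showed that the intensity values had been scaled by the authors: the mean of each array after trimming 2% at each end was 497 to 500. No detection calls were used here, and the depth of an array cannot be given; with 3 arrays in each group their number limits the precision. Signals were log2 transformed, 64 control probe sets were set aside, the 30% of probe sets with the lowest mean (6824) were left out, and limma 3.58.1 (lmFit and eBayes with an intensity trend, R 4.3.3) was fitted with 1 coefficient for each of the 4 groups (8 residual degrees of freedom). P-values were two-sided and adjusted by Benjamini-Hochberg over 15922 probe sets. The fit was checked on simulated data. Genes were named from the platform annotation: 13513 probe sets had 1 gene, 503 several and 8730 were not listed.

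Every array's value is printed for the genes of a complex called in a SAM comparison or, where none was, for its brightest gene and the gene with the largest tissue difference. ndhG and psbA, and the neighbours in the ratios, were added after their values were seen. The genes and lists were chosen with earlier results of these data known. Alternatives covered scaling, low values, filters, the samples in the fit, the spread, a replicate block, the GAPDH ratio as a covariate, and each array left out.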

Additional observations from a re-analysis of the deposited data

How the results depend on the processing

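In mock SAM against whole plants 19 of the 41 calls held in all of the 16 alternatives that tested them and no gene changed sign while called. With the GAPDH ratio as a covariate 21 genes were called and the median was -0.99. In that fit 2291 of all probe sets were lower and 3965 higher. Leaving out 1 array gave 39 to 41 calls and medians of -1.70 to -1.15, the last without mock SAM replicate 3. psbM turned to 0.07 with quantile normalization (adjusted p 0.384). The median of all probe sets in this comparison was 0.205, 0.157 with quantile normalization and 0.0713 with median centring, and relative to it the genes had medians of -1.69, -1.54 and -1.69. psbA lost its call in 7 alternatives and ndhF in 7. For L-AOPP against mock the median ran from -0.0903 (without L-AOPP replicate 3) to 0.3701 over single arrays left out, and was -0.1616 without replicate 3 of both groups, an alternative chosen after seeing the data. Between the arrays with both agents and those with L-AOPP alone 0 to 2 genes were called with 1 array left out, and the median was 0.10 to 0.50. For L-AOPP with IAA against mock 5 genes were called with a pseudocount, 0 without the intensity trend, 0 with the GAPDH covariate and 0 to 5 with 1 array left out (0 without mock SAM replicate 3 or L-AOPP with IAA replicate 2, 1 without L-AOPP with IAA replicate 1, 5 without mock SAM replicate 2), with medians of 0.33 to 0.92. With the GAPDH covariate 4 of all probe sets were higher and 3 lower in this comparison. The cause of these changes in the calls was not tested. Correlations of same-numbered arrays ran from -0.19 to 0.11, so no strong pairing by the replicate numbers of the labels was seen. These values cannot show whether same-numbered samples were grown or handled together. With a replicate block the calls were 0, 0, 2 and 39. The filter on the lowest 50% left 37 of the 43 genes. In all, 4 of 516 signals of these genes lay below 19.4, where log2 differences are unsure.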
